A study of Mus musculus with 20 samples.

Results

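Proline codon sites are the positions in mouse hippocampal mRNAs where a ribosome footprint was assigned to a codon for proline (CCA, CCC, CCG or CCT). They were chosen by the codon alone: the 4 proline rows of the 61 sense codons in the codon-enrichment table of each footprint library, and every site with a proline codon in the occupancy table of each footprint library. Over the 10 footprint libraries together, 33510 of 586153 listed codon sites were proline sites (5.72%), in 5195 genes, and they comprised 8709 CCA, 9609 CCC, 3768 CCG and 11424 CCT sites. A single library held 10415 to 18577 proline sites. In the coding sequences of the same mRNAs proline made up 6.19% of sense codons, and CCA, CCC, CCG and CCT made up 29.1%, 29.3%, 10.8% and 30.8% of the proline codons.

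The study profiled ribosomes in the hippocampus of Qtrt1-/- mice (knockout, KO) and wild-type mice (WT), and its title links queuosine in tRNA to sex-dependent memory and to the speed of elongation. Footprint and input libraries came from 3 KO females (6 months 21 days of age), 3 WT females (6 months 21 or 22 days), 2 KO males and 2 WT males (in each male group 1 animal of 6 months 18 days and 1 of 5 months 16 days). Footprints are the mRNA fragments left inside ribosomes after nuclease digestion, and input is cytoplasmic RNA of the lysate. The labels give no strain and do not say how Qtrt1 was disrupted. Hippocampi were lysed with cycloheximide, and each footprint library shares its lysate with 1 input library. P-values measure the spread between these animals.

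Proline is the amino acid whose side chain closes on its own backbone nitrogen, which makes it a slow partner in peptide bond formation. Stretches of consecutive prolines stall ribosomes, and the elongation factor eIF5A, which carries the modified lysine hypusine, relieves such stalls. CCT and CCC are read by a proline tRNA with inosine at the wobble base, and CCA and CCG by other proline tRNAs. None of them carries queuosine, the base that Qtrt1, the catalytic subunit of tRNA-guanine transglycosylase, places in the tRNAs of histidine, tyrosine, asparagine and aspartate.

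The proline sites with the highest occupancy show where footprints gathered. Occupancy is the deposited ratio of a codon's footprints to the mean footprints per codon of its mRNA. Of 547 proline sites in 359 genes with at least 10 footprints in every library, the 8 of highest mean occupancy in 8 different genes are printed with 12 bases on either side, 5′ to 3′ along the mRNA, with the proline codon in capitals. The bases are GENCODE M21 coding sequence (GRCm38), matched to the listed transcript and codon.
Gria1 (ENSMUST00000094179), proline 759: gccctgagaaatCCAgtaaacctggca
Dennd1a (ENSMUST00000102787), proline 772: gaacttctgcagCCAcccagcccagcc
Txndc5 (ENSMUST00000035988), proline 73: atgttcttcgcgCCCtggtgtggacac
Mark1 (ENSMUST00000027929), proline 296: ttagtgctgaatCCCataaagcggggc
Abca5 (ENSMUST00000043961), proline 1387: aacccactgtggCCAgatctcactcta
Psap (ENSMUST00000179238), proline 263: caggatcagcaaCCCaaggaaatctgt
Scamp1 (ENSMUST00000022197), proline 21: ccgttcaaggacCCAtctgtcacacag
Nrde2 (ENSMUST00000021596), proline 280: tcatggctgaatCCTctggggatttat

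The 10 proline sites with the smallest adjusted p between genotypes carry the comparison of KO with WT, and are printed the same way to show the codon before the proline.
Cpe (ENSMUST00000048967), proline 295: gtcatgtctgacCCCaatcgacctccc
Sdhb (ENSMUST00000010007), proline 239: aagctgcaggacCCCttctctgtctac
Serpini1 (ENSMUST00000029423), proline 368: gctgtgctgtacCCTcaggttattgtc
Fem1b (ENSMUST00000034775), proline 479: attcacctggacCCCagaacacgggaa
Ubqln2 (ENSMUST00000060714), proline 326: gagaatcgtgatCCGctgcccaatcct
Rapgefl1 (ENSMUST00000107479), proline 577: attccgttcgtgCCCctgatcctcaaa
Crkl (ENSMUST00000006293), proline 215: cagaccacaactCCTctacctacagtt
Clptm1l (ENSMUST00000022102), proline 411: tatctgctctacCCTctctgtgtcggg
Flrt1 (ENSMUST00000113383), proline 329: ctcaggaacaacCCCtggttctgtggc
Nme1 (ENSMUST00000135884), proline 136: ttgtggtttcagCCTgaggagctggtg
In 4 of these 10 windows the base triplet before the proline codon is gac or gat (aspartate), in 2 it is tac (tyrosine) and in 1 it is aac (asparagine). Over all 1493 tested proline sites with a matched coding sequence, 12.6% followed aspartate, 1.61% tyrosine and 8.57% asparagine.

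The occupancy tables held 1071976 to 3032432 footprints per library at 173873 to 334021 sites, and 39.3% to 47.8% of the sites rested on 1 footprint. Gene counts totalled 5357812 to 15517982 in the footprint libraries and 9000662 to 13637370 in the input libraries. Qtrt1 had 1 to 10 footprint counts in KO libraries and 28 to 94 in WT libraries. Markers of the hippocampus (Prox1, Wfs1, Neurod6 and 5 others) summed to 1064 to 1147 CPM (counts scaled by library size) of footprints in KO females, 645 to 1015 in WT females, 1175 to 1333 in KO males and 1045 to 1180 in WT males. Choroid plexus markers, led by Ttr, summed to 2187 to 9180 CPM in KO females, 137 to 5672 in WT females, 8787 to 13793 in KO males and 11703 to 12238 in WT males. Striatum markers summed to 76.1 to 235.6 in KO females, 160.3 to 465.7 in WT females, 77.4 to 107.0 in KO males and 81.6 to 117.2 in WT males, and markers of fibroblasts and meninges to 263 to 343 in KO females, 109.6 to 232 in WT females, 224 to 308 in KO males and 301 to 314 in WT males. In bulk tissue, fewer cells of a type and less RNA per cell cannot be told apart, and the part of these dissection differences in the results was not tested.

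Among the synonymous codons CCT stood apart from the other 3. The enrichment table gives each codon at each position relative to the listed codon as a deposited ratio, in which 1 is no enrichment; how its denominator was formed is not stated in the labels. Position 0 is the listed codon and position 1 the codon directly upstream of it; the sources used here do not name the ribosomal site that either stands for. At position 1, CCT enrichment was 1.23, 1.18 and 1.25 in KO females, 1.21, 1.29 and 1.23 in WT females, 1.19 and 1.26 in KO males, and 1.15 and 1.24 in WT males. At the same position CCC was 0.474, 0.456 and 0.530 in KO females, 0.534, 0.563 and 0.532 in WT females, 0.564 and 0.536 in KO males, and 0.528 and 0.603 in WT males. CCT was above 1 and CCC below 1 in all 10 libraries. CCA ranged from 0.577 to 0.697 and CCG from 0.607 to 0.749, also below 1 in every library.

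CCT exceeded CCA at position 1 by 1.95-fold (range over libraries 1.75 to 2.18), CCC by 2.30-fold (2.06 to 2.59) and CCG by 1.84-fold (1.66 to 2.07). Each of these differences held in 10 of 10 libraries (exact sign-flip test, two-sided p = 0.00195, the smallest that 10 libraries allow; Benjamini-Hochberg adjusted over 6 pairs, 0.00293). CCC was lower than CCG in 10 of 10 libraries (ratio 0.798, exact adjusted p = 0.00293) and lower than CCA in 9 of 10 (CCA over CCC 1.18, exact adjusted p = 0.00469). CCA and CCG lay closest, at a ratio of 0.941 with CCA higher in 2 of 10 libraries (exact adjusted p = 0.0332), and this pair lost its call in 5 of the 10 fits that left out 1 library (WT female replicate 1 or any of the 4 males; exact adjusted p = 0.0586 to 0.0664).

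At position 0 the order was the same at the top and different below it. CCT was 1.44, 1.44 and 1.501 in KO females, 1.32, 1.45 and 1.52 in WT females, 1.49 and 1.66 in KO males, and 1.45 and 1.72 in WT males. CCT exceeded CCA by 1.79-fold, CCC by 1.52-fold and CCG by 1.73-fold in 10 of 10 libraries (exact sign-flip test, adjusted p = 0.00234 for each). CCC was here higher than CCA and CCG in 10 of 10 libraries, with CCA over CCC at 0.852 and CCC over CCG at 1.14 (exact adjusted p = 0.00234 for each). CCA and CCG did not pass (ratio 0.968, range 0.877 to 1.08, exact adjusted p = 0.213).

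**Figure D1:**
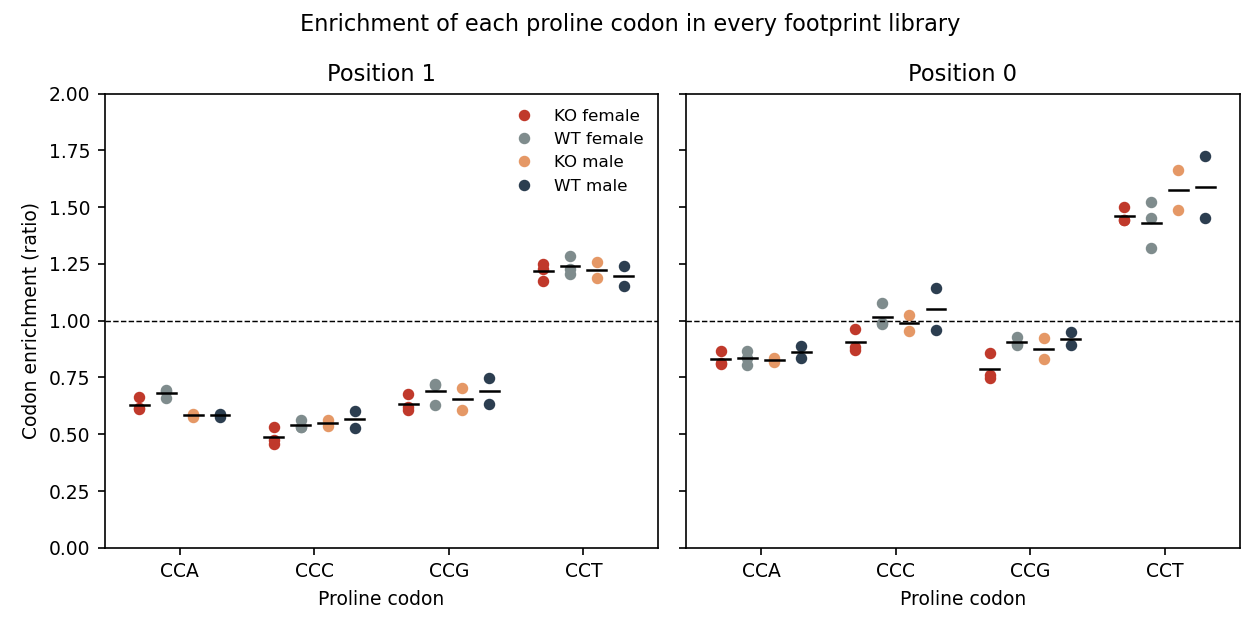
Codon enrichment (ratio, vertical axis) of the 4 proline codons at positions 1 and 0; each point is 1 footprint library, bars are group means, and the dashed line marks 1. CCT lies above 1 at both positions in every library, while CCA, CCC and CCG at position 1 lie between 0.456 and 0.749.

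Over a wider window CCT and CCC rose downstream of the listed codon, and all but CCT had a trough around it. The rise was at position -4, which is 4 codons downstream, where CCT averaged 1.64, CCC 1.44, CCA 1.33 and CCG 1.28 over the 10 libraries. CCT and CCC there exceeded their means at all positions more than 10 codons away (highest 1.33 and 1.37). CCA and CCG did not, as their means that far away ranged over 0.849 to 1.36 and 0.662 to 1.77. As a mean of its codons on the log2 scale, proline was the highest of the 20 amino acids at that position (0.494). It ranked 6 at position 0, 14 at position 1 and 18 at position 2. Over the 9 positions from -3 to 5, CCA and CCC were below 1 at all 9, CCG at 8, and CCT at 1. The lowest value of CCC was 0.532 at position 1, while CCA and CCG were lowest at position -3, at 0.594 and 0.628. At position -4 CCT ranged from 1.401 to 1.45 in KO females and 1.32 to 1.52 in WT females, against 1.82 and 2.02 in KO males and 1.73 and 2.33 in WT males: the males of both genotypes lay above all females.

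**Figure D2:**
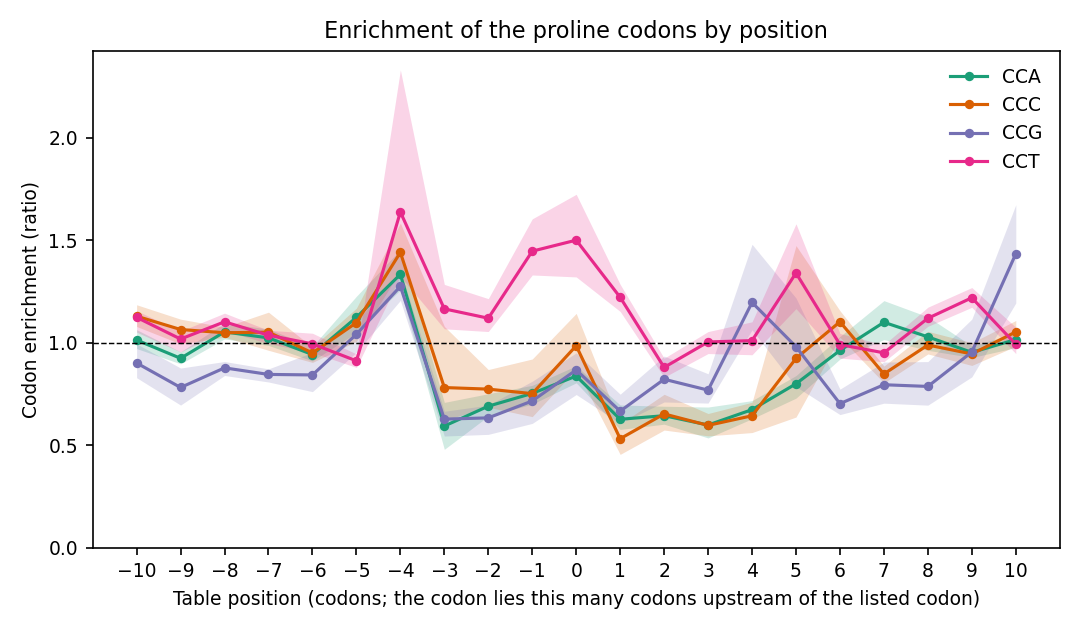
Codon enrichment (ratio, vertical axis) of the proline codons against table position in codons; lines are means of the 10 footprint libraries, bands run from the lowest to the highest library, and the dashed line marks 1. CCA, CCC and CCT are highest in this window at position -4 (1.33, 1.44 and 1.64), and CCT lies above the other 3 from -4 to 3.

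No proline codon passed the test between genotypes. CCG at position 0 gave the smallest adjusted p of any proline codon: its enrichment was 0.762, 0.748 and 0.857 in KO females, against 0.895, 0.927 and 0.892 in WT females. The groups did not overlap, and the log2 difference was -0.20 ± 0.066 (SE), but it did not pass (limma over 61 codons, adjusted p = 0.0737). In males CCG at position 0 was 0.922 and 0.830 in KO and 0.891 and 0.951 in WT, a log2 difference of -0.07 ± 0.081 (limma adjusted p = 0.823). CCC at position 0 was 0.883, 0.871 and 0.965 in KO females, against 0.990, 1.08 and 0.986 in WT females, again without overlap (log2 difference -0.17 ± 0.075, limma adjusted p = 0.124).

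Limma called 0 of 4 proline codons at either position with both sexes together, in females or in males. The share of all 61 codons it called at position 1 was 6.56% with both sexes together, 9.84% in females and 3.28% in males, and at position 0 it was 8.2% with both sexes together, 11.5% in females and 0% in males. Without adjustment, 20 of the 61 codons reached 0.05 at position 1 with both sexes, 25 in females and 5 in males. At position 0 it was 17, 24 and 1. Of the 4 proline codons, 0 did so at position 1 with both sexes and 1 (CCA) in females. At position 0 it was 1 (CCG) with both sexes and 2 (CCC and CCG) in females, and in males it was 0 at either position. Left-out libraries moved these counts: without WT male replicate 1 limma called CCC at position 1 (adjusted p = 0.0476) and CCC and CCG at position 0 (0.0187 and 0.0444) with both sexes together, and without KO male replicate 1 it called CCG at position 0 (0.0467). In females at position 0, CCG was called without KO female replicate 3 (0.0413), and CCC and CCG without either WT male library (0.0491 and 0.0354). How many of the 61 codons these fits called is not given here. Whether proline codons gained calls apart from other codons therefore cannot be read from them.

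Averaged over the 4 codons on the log2 scale, KO lay below WT at 10 of the 11 positions from -5 to 5. The differences were -0.03 to -0.10 over both sexes. Other amino acids were also lower in KO: at position 0 glycine and alanine differed by -0.14 each, and proline by -0.07. From the highest difference down, proline ranked 14 of the 20 amino acids at position 0 and 16 at position 1. At -5 the proline mean was instead higher in KO, by 0.04 in females and 0.01 in males, and ranked 3 of 20. This was the only position where the groups did not overlap in either sex, and it did not pass (0.03 with both sexes, exact permutation within sex, p = 0.0167, the smallest possible, adjusted p = 0.183 over 11 positions). At position 1 the proline mean was -0.52 ± 0.074 in KO females against -0.42 ± 0.052 in WT females (SD, n = 3 each), and -0.49 ± 0.041 in KO males against -0.47 ± 0.090 in WT males (SD, n = 2 each). On the deposited values the groups overlapped at positions 1 and 0 in both sexes. CCT had the smallest difference with both sexes at both positions: on the log2 scale it was 0.00 ± 0.042 at position 1 and 0.01 ± 0.062 at position 0 (SE). At position 2 the average was -0.51 ± 0.070 in KO females against -0.33 ± 0.030 in WT females, without overlap. It was -0.43 ± 0.062 in KO males against -0.47 ± 0.017 in WT males. This difference between the sexes did not pass (exact permutation within sex, p = 0.0333, adjusted p = 0.367 over 11 positions). On values centred on the library median, the difference at position 2 was -0.26 in females, without overlap, and -0.013 in males. Centred values of females also did not overlap at position 1 (-0.20) or position 0 (-0.06). Each of these female differences had the smallest p possible (exact permutation, p = 0.1). Centring each library on the median of its 61 codons widened the difference at position 1 to -0.14 with both sexes. Without centring, the median of the 61 single-codon differences between KO and WT there was 0.05. No genotype difference in the ratio of one proline codon to another passed in any of the 6 pairs (exact permutation within sex, smallest adjusted p = 0.5 at position 1 and 0.3 at position 0). The widest at position 1 was CCT over CCC, at 1.26 in KO against 1.15 in WT on the log2 scale, and the widest at position 0 was CCT over CCG, at 0.87 in KO against 0.71 in WT.

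Sites with many times the mean footprints of their mRNA held more proline than the listed sites at large. Taking an occupancy of at least 10 as strong, proline made up 6.17%, 6.03% and 6.59% of strong sites in KO females, 6.42%, 6.83% and 6.78% in WT females, 6.59% and 6.48% in KO males, and 6.48% and 6.80% in WT males. Relative to its share of all listed sites in the same library this was 1.15, 1.16 and 1.18 in KO females, 1.14, 1.16 and 1.19 in WT females, 1.15 and 1.15 in KO males, and 1.16 and 1.13 in WT males. All 10 libraries were above 1, and the KO and WT groups overlapped in both sexes (difference of log2 ratios 0.001). Set beside the 6.19% of proline in the coding sequences, the strong-site shares of 6.03% to 6.83% lay on both sides. CCT had the highest ratio among strong sites, 1.24 (range 1.204 to 1.27), against 1.12 for CCC, 1.11 for CCA and 1.07 for CCG; with the sites of at least 10 footprints alone CCG was highest at 1.21 and CCT was 1.19. The mean log2 occupancy of proline sites minus that of all listed sites depended on the mRNAs taken: over all of them it was 0.22 ± 0.029 (SD, n = 10), above 0 in 10 of 10 libraries, and in mRNAs with footprints on at least 50% of their codons it was -0.13 ± 0.096, above 0 in 0 of 10 (exact sign-flip p = 0.00195 for each, the smallest that 10 libraries can give).

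The occupancy of a proline codon was lower where another proline came before it. For this measure, chosen after seeing the data, codons without a listed footprint were counted as 0, in the 600 to 1360 mRNAs per library with a mean of at least 1 footprint per codon. A proline codon after another amino acid had a mean occupancy of 1.01, 1.01 and 1.05 in KO females, 0.994, 1.14 and 1.08 in WT females, 1.10 and 1.15 in KO males, and 1.05 and 1.15 in WT males. The mean over the 10 libraries was 1.07 ± 0.059 (SD), and the genotypes overlapped in both sexes. In runs, the second proline codon had 0.338 ± 0.027, the third 0.384 ± 0.209, and the fourth or later 0.0955 ± 0.039. Codons that were not proline averaged 0.869 ± 0.010. The second codon lay below prolines after another amino acid in every library, without overlap: its highest value was 0.368 and their lowest 0.994. Those prolines (11047 to 29868 codons per library) include single ones that start no run. They far outnumber the second codons (828 to 2410), so this does not compare the first and second codon of the same runs. The third and later codons rest on 44 to 367 codons per library, and the third ranged from 0.0732 to 0.627, on both sides of the second.

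Set against the product of the separate effects of a proline before and a proline at the site, a pair of prolines differed by -1.51 ± 0.218 on the log2 scale, below 0 in 10 of 10 libraries. Relative to neither, a proline at the site alone gave a log2 difference of 0.29 ± 0.077, and a proline before it alone -0.22 ± 0.075. The difference between genotypes in the pair effect was 0.06, smaller than the SD between libraries. The first proline of a pair was also lower than a proline followed by another residue: a pair at offsets 0 and 1 differed from the separate effects by -0.70 ± 0.171, below 0 in 10 of 10 libraries. Over listed sites alone, a site with prolines at offsets -1 and 0 lay -0.61 ± 0.117 on the log2 scale from a site with 1 of them, below 0 in 10 of 10 libraries (exact sign-flip adjusted p = 0.00586 over 3 pairs of offsets).

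Other residues also had lower occupancy when repeated. Over the 20 amino acids, the log2 occupancy after the same residue minus that after another residue was lowest for isoleucine (-2.04 ± 0.212) and lysine (-1.96 ± 0.464), then proline (-1.73 ± 0.195). Proline minus the mean of the other 19 (-0.69) was -1.04 ± 0.160, below 0 in 10 of 10 libraries. Aspartate, glycine and cysteine were above 0 in 10 of 10 libraries, with aspartate at 0.79 ± 0.193. This measure keeps any effect that the preceding residue has on all codons after it, which was set apart above for proline only. In enrichment at position 1, directly upstream of the listed codon, aspartate ranked 1, glycine 2 and cysteine 4 of the 20 amino acids. Proline ranked 14, lysine 19 and isoleucine 20. The order of the residues therefore does not rank the effect of a repeat itself, which was not tested for the other 19.

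Among the 16 proline codon pairs, mean occupancy at the second codon was highest for CCT-CCG at 0.912 ± 0.191, CCC-CCG at 0.712 ± 0.343 and CCG-CCT at 0.689 ± 0.395. It was lowest for CCG-CCG at 0.0571 ± 0.033 and CCC-CCC at 0.0908 ± 0.030. Each pair rests on 29 to 263 codons per library. The top 3 overlap in their ranges and so do the bottom 2, but no library of CCG-CCG (highest 0.115) reached the lowest of CCT-CCG (0.650).

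**Figure D3:**
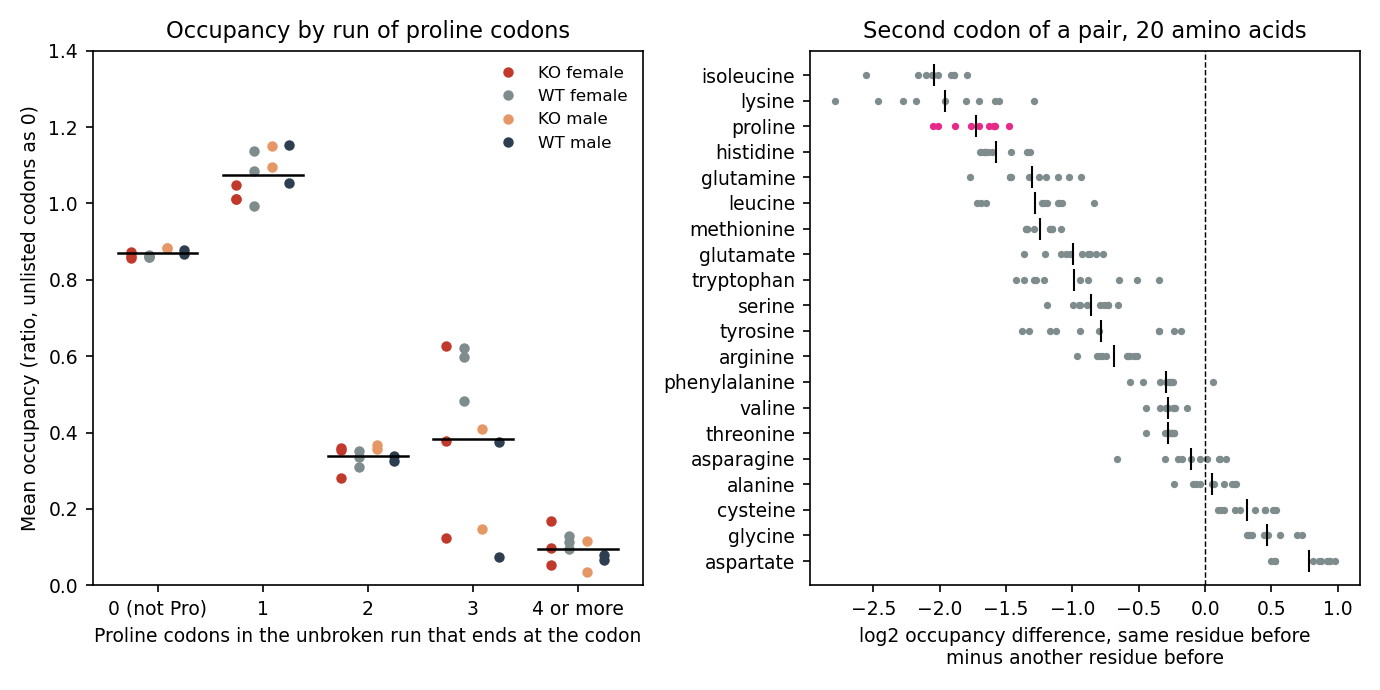
Left, mean occupancy (ratio, codons without a footprint as 0) of codons by the number of proline codons in the run that ends there; points are footprint libraries and bars the mean of 10. Right, log2 difference in occupancy between a codon after the same residue and after another residue for 20 amino acids; points are libraries and ticks are means, with proline at -1.73, above isoleucine and lysine only. Any effect of the preceding residue on all codons after it is not removed.

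The 8 most occupied sites lay between 212 and 343 times the mean of their mRNA. The CCA of Gria1, the GluA1 subunit of the AMPA receptor (chr11:57309773-57309775, plus strand, exon 14 of 16), had an occupancy of 285, 255 and 372 in KO females, 221, 263 and 300 in WT females, 472 and 424 in KO males, and 366 and 470 in WT males. The groups overlapped in both sexes. The CCC of Txndc5, a protein disulfide isomerase of the endoplasmic reticulum (chr13:38528190-38528192, minus strand, exon 1 of 10), was the steadiest, at 219 to 282 in the 10 libraries. The CCA of Scamp1, a membrane protein of secretory carriers (chr13:94253065-94253067, minus strand, exon 2 of 9), rested on the most footprints, 231 to 472 per library, with an occupancy of 165 to 242.

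The other 5 had mean occupancies of 212 to 263. They were in Dennd1a, an exchange factor for a Rab GTPase (chr2:37800771-37800773, minus strand, exon 22 of 22), Mark1, a microtubule-affinity kinase (chr1:184919331-184919333, minus strand, exon 9 of 18), and Abca5, a lipid transporter (chr11:110278254-110278256, minus strand, exon 32 of 39). The last were in Psap, the precursor of the saposins (chr10:60299101-60299103, plus strand, exon 9 of 15), and Nrde2, a nuclear RNA-processing factor (chr12:100143931-100143933, minus strand, exon 5 of 14). In females 3 of the 8 did not overlap between genotypes. Mark1 was 296, 332 and 296 in KO females against 158, 230 and 222 in WT females, and Psap 247, 274 and 225 in KO females against 182, 195 and 208 in WT females. Abca5 was lower in KO, at 133, 240 and 267 in KO females against 301, 314 and 335 in WT females. In males the 1 site without overlap was Txndc5, at 233 and 240 in KO against 219 and 224 in WT. Random genotype labels give no overlap at a site with probability 0.1 in females and 0.333 in males. The share without overlap among the 547 sites was not counted. None of the 8 passed between genotypes in edgeR's quasi-likelihood test (adjusted p = 0.297 to 0.974 with both sexes together). The next gene by this measure, Cadm3, had a mean of 208. Over the 547 sites, leucine was the commonest residue 2 codons before the proline, at 28.2%, and proline stood directly before 1.46% of them.

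EdgeR tested 1495 proline sites with a mean of at least 10 footprints, among 24839 sites of all codons in mRNAs listed in every library. With both sexes together it called 42 proline sites, 24 higher and 18 lower in KO, or 2.81% of those tested, beside 2.68% of all sites, where 409 were higher and 257 lower. In females it called 179 proline sites, 82 higher and 97 lower, or 11.97%, beside 11.5% of all sites, where 1602 were higher and 1246 lower. In males it called 0 proline sites, beside 0% of all sites, and 79 proline sites had an unadjusted p under 0.05 (5.28%, against 4.501% of all sites). The proline shares were thus near those of all codons. Several sites share a gene, since the 179 lie in 145 genes.

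The counts moved with single libraries. With both sexes together, 0 proline sites were called without KO female replicate 1, without WT female replicate 2 or without KO male replicate 2, 6 without KO female replicate 2, 14 without WT female replicate 1 and 26 without WT female replicate 3. The count was 73 without KO male replicate 1 and 112 without WT male replicate 1. In females it was 7 without KO female replicate 1, 15 without WT female replicate 2, 30 without KO female replicate 2, 58 without WT female replicate 1, 91 without WT female replicate 3, and 259 without either WT male. DESeq2 called 53 with both sexes, and limma on log2 occupancy 0. The shares of all codon sites called in these fits are not given here. Whether proline sites moved apart from other sites therefore cannot be read from these counts.

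The direction of the called sites varied among the synonymous codons. In females 16 of 59 called CCC sites were higher in KO, against 41 of 77 CCT sites, 19 of 31 CCA sites and 6 of 12 CCG sites; over all codons it was 1602 of 2848 (56.3%). The median log2 difference over all tested sites in females was -0.15 for CCC (422 sites), -0.04 for CCG (161), 0.06 for CCA (344) and 0.11 for CCT (568), beside 0.05 over all codons. These are descriptions, and the difference between the codons was not tested.

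The genotype difference at a proline site varied with the residue before it. This split was chosen after the called sites had been seen, so it is a description with no test. Of the 1493 tested proline sites with a matched coding sequence, 367 (24.6%) followed aspartate, asparagine, histidine or tyrosine, the residues of the queuosine tRNAs. Of the 42 sites called with both sexes together, 22 (52.4%) did, and of the 179 called in females 56 (31.3%). After aspartate 8 of the 9 called sites were lower in KO with both sexes together, and 26 of 28 in females. After asparagine 6 of 6 were higher in KO, after tyrosine 4 of 4 and after histidine 3 of 3. In females it was 13 of 17, 6 of 6 and 5 of 5. The called sites of all codons were not counted by the residue before them. These counts therefore do not set proline sites apart from other sites.

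Averaged over all 188 tested proline sites after aspartate, log2 occupancy relative to all proline sites was 0.16, 0.19 and 0.15 in KO females, against 0.41, 0.39 and 0.38 in WT females. In males it was 0.14 and 0.16 in KO, against 0.32 and 0.35 in WT. KO was lower than WT in both sexes without overlap, by -0.22 in females and -0.19 in males. Split by codon, the difference in females was -0.39 after GAC (92 sites) and -0.06 after GAT (96 sites), and in males -0.23 and -0.15. After GAC, KO females lay at -0.02 to 0.02 and WT females at 0.39 to 0.41.

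After tyrosine (24 sites) the mean was -0.47, -0.29 and -0.61 in KO females, against -1.12, -1.19 and -0.85 in WT females. In males it was -0.66 and -0.45 in KO, against -0.86 and -0.91 in WT. KO was higher without overlap in both sexes, by 0.60 in females and 0.33 in males. Of the 20 residues before a proline, 14 gave no overlap in females and 5 in males; those 5 were aspartate, asparagine, tyrosine, phenylalanine, which has no queuosine tRNA, and cysteine, whose direction was opposite in the sexes (0.19 in females, -0.16 in males). After asparagine (128 sites) it was 0.80, 0.82 and 0.85 in KO females against 0.61, 0.65 and 0.61 in WT females, and 0.55 and 0.64 in KO males against 0.53 and 0.27 in WT males, higher by 0.20 in each sex. After histidine (27 sites) it was -0.27, -0.29 and -0.44 in KO females against -0.78, -0.93 and -0.73 in WT females, while the males overlapped, at -0.88 and -0.59 in KO against -0.70 and -1.53 in WT.

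Sites of other codons after the same residues differed in the same direction. In females KO minus WT at those sites was -0.25 after aspartate (2851 sites), 0.43 after tyrosine (873), 0.33 after asparagine (1168) and 0.38 after histidine (206), each relative to all sites that were not proline. In males it was -0.14, 0.33, 0.29 and 0.21. Proline sites after residues whose tRNAs lack queuosine also differed in females, by -0.35 after tryptophan (29 sites), -0.29 after glutamine (74), -0.29 after glycine (128), 0.29 after phenylalanine (69) and 0.28 after serine (94). In males these were -0.09, -0.16, -0.04, 0.19 and -0.04. After another proline (26 sites) the difference was 0.03 in each sex.

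**Figure D4:**
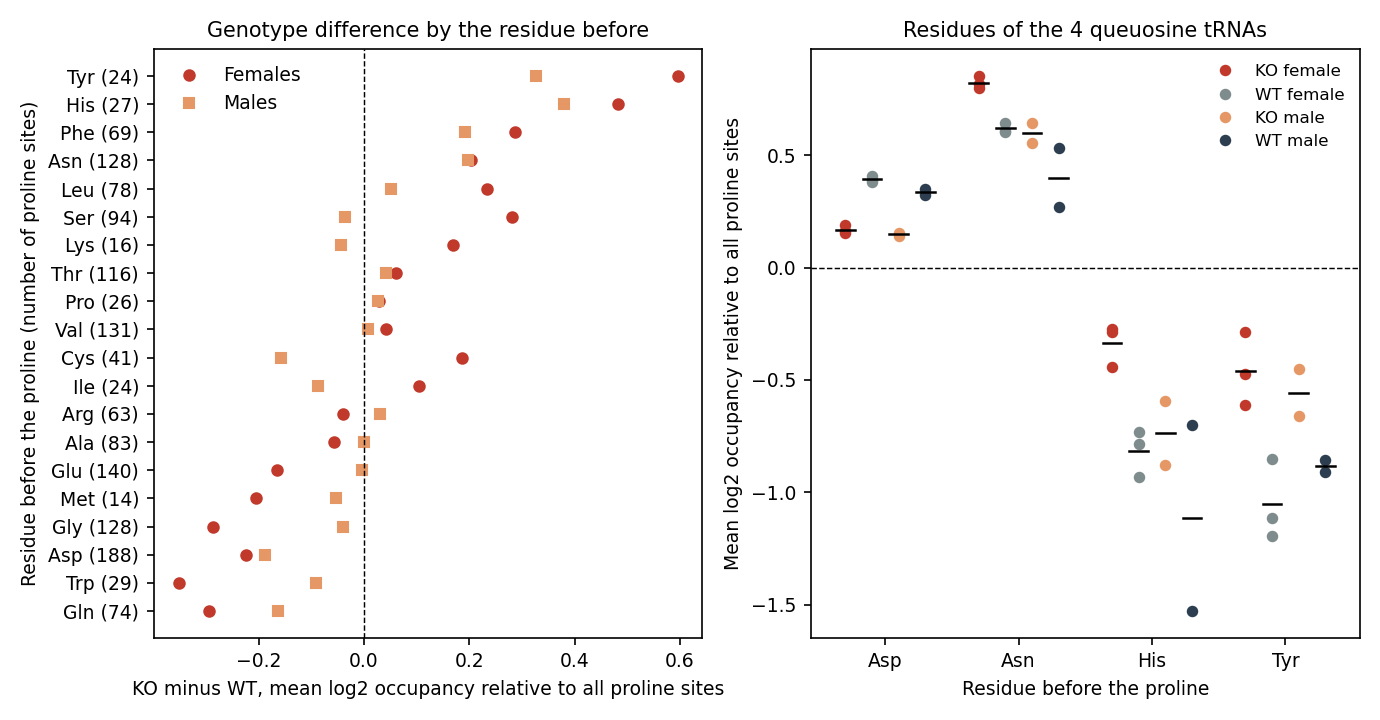
Left, KO minus WT in mean log2 occupancy of proline sites, relative to all tested proline sites, by the residue before the proline (number of sites in brackets), in females and males. Right, the same mean in each footprint library for the residues of the 4 queuosine tRNAs, with group means as bars; after aspartate KO lies below WT, at 0.14 to 0.19 against 0.32 to 0.41, and after tyrosine above it, at -0.66 to -0.29 against -1.19 to -0.85.

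The named called sites that follow aspartate were lower in KO. The CCC of Sdhb, the iron-sulphur subunit of succinate dehydrogenase (chr4:140977444-140977446, plus strand, exon 7 of 8), had an occupancy of 13.98, 9.81 and 11.9 in KO females, against 46.4, 41.7 and 45.6 in WT females. In males it was 21.2 and 16.4 in KO, against 22.3 and 28.6 in WT. KO lay below WT in both sexes, narrowly in males (edgeR log2 difference with both sexes -1.16 ± 0.21, adjusted p = 0.013; in females -1.90 ± 0.28). The CCC of Fem1b, a substrate receptor of a ubiquitin ligase (chr9:62796540-62796542, minus strand, exon 2 of 2), was 5.99, 4.86 and 4.52 in KO females against 11.6, 14.3 and 13.6 in WT females, and 7.26 and 4.55 in KO males against 12.2 and 17.9 in WT males. Its log2 difference was -1.35 in females and -1.30 in males (both together -1.33 ± 0.26, edgeR adjusted p = 0.0148).

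The CCC of Cpe, carboxypeptidase E of neuropeptide processing (chr8:64609136-64609138, minus strand, exon 5 of 9), was near the mean of its mRNA and lower in KO, at 0.563, 0.285 and 0.490 in KO females against 0.930, 1.29 and 1.10 in WT females, and 0.915 and 0.798 in KO males against 2.14 and 1.78 in WT males (edgeR log2 difference -1.25 ± 0.23, adjusted p = 0.013). The CCG of Ubqln2, a shuttle of ubiquitinated proteins to the proteasome (chrX:153499429-153499431, plus strand, exon 1 of 1), was 1.84, 2.79 and 4.78 in KO females against 11.2, 10.0 and 12.4 in WT females, and 3.70 and 2.22 in KO males against 5.36 and 4.79 in WT males (edgeR log2 difference -1.30 ± 0.26, adjusted p = 0.0164).

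Sites after tyrosine or asparagine were higher in KO. The CCT of Serpini1, the brain protease inhibitor neuroserpin (chr3:75640284-75640286, plus strand, exon 8 of 9), had an occupancy of 39.7, 37.7 and 31.9 in KO females, against 15.2, 9.81 and 15.1 in WT females. In males it was 21.7 and 35.5 in KO, against 17.8 and 17.9 in WT. No KO library overlapped with WT of its sex (edgeR log2 difference 1.06 ± 0.20, adjusted p = 0.013). The CCT of Clptm1l, a multipass membrane protein (chr13:73615993-73615995, plus strand, exon 12 of 17), was 71.2, 54.3 and 33.4 in KO females against 18.3, 8.22 and 16.0 in WT females, while the males overlapped, at 35.0 and 56.8 in KO against 18.998 and 35.3 in WT (edgeR log2 difference 1.35 ± 0.28, adjusted p = 0.0217). The CCC of Flrt1, a leucine-rich repeat adhesion protein of neurons (chr19:7096194-7096196, minus strand, exon 2 of 2), was 43.0, 47.1 and 42.8 in KO females against 11.6, 11.96 and 17.8 in WT females, and 52.9 and 85.3 in KO males against 31.9 and 47.2 in WT males (edgeR log2 difference 1.24 ± 0.26, adjusted p = 0.0223).

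The remaining 3 named sites followed valine, threonine and glutamine. The CCC of Rapgefl1, related to exchange factors for Rap GTPases (chr11:98850166-98850168, plus strand, exon 12 of 15), was higher in KO in both sexes, at 42.6, 58.3 and 53.1 in KO females against 21.8, 16.8 and 21.7 in WT females (edgeR log2 difference 1.14 ± 0.23, adjusted p = 0.0172). The CCT of Crkl, an adaptor of tyrosine kinase signalling (chr16:17469224-17469226, plus strand, exon 2 of 3), was also higher, at 40.9, 25.6 and 27.2 in KO females against 10.2, 2.98 and 9.07 in WT females, on as few as 1 footprint in a library (edgeR log2 difference 1.77 ± 0.36, adjusted p = 0.0172). The CCT of Nme1, a nucleoside diphosphate kinase (chr11:93959447-93959449, minus strand, exon 5 of 5), was lower in KO females, at 0.501, 0.484 and 0.623 against 3.08, 3.78 and 3.67 in WT females (edgeR log2 difference in females -2.67 ± 0.46, adjusted p = 0.00375; in males -0.38). Nme1 has the near-identical neighbour Nme2, so its footprints may be shared between the genes. None of the 10 was called in males alone (edgeR adjusted p = 0.999). The choice by both sexes together favours sites whose sexes differ the same way, so their shared direction is no separate evidence.

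**Figure D5:**
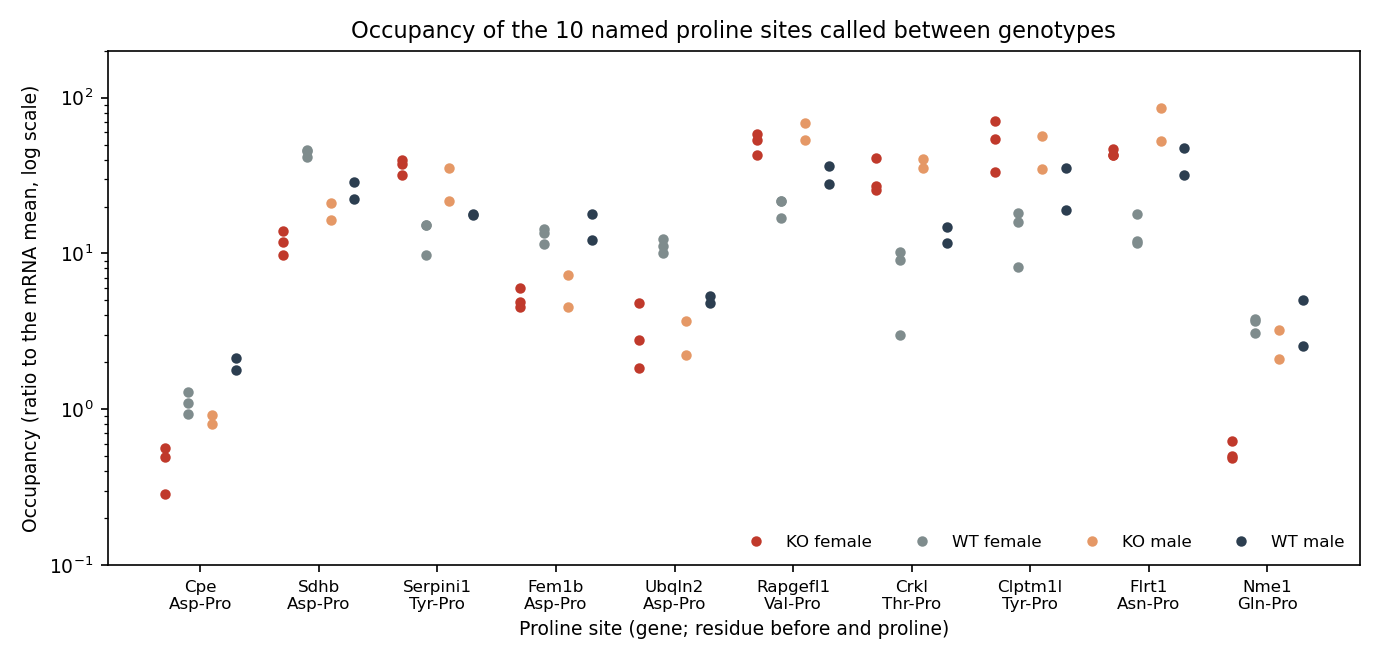
Occupancy (ratio to the mean of the mRNA, log scale) of the 10 named called proline sites in each footprint library, with the residue before the proline under the gene. Sites after Asp lie lower in KO females than in WT females, such as Sdhb at 9.81 to 13.98 against 41.7 to 46.4, and sites after Tyr or Asn lie higher.

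Of the genes that supply proline, charge its tRNA or help elongation through prolines, 0 or 1 was called in each comparison. A list this short cannot set such counts apart from the shares over all genes. Of 20 such genes, all of them in the count table and all tested, 0 were called in footprints with both sexes together or in males, beside 0.00761% and 0% of 13143 genes, and 1 was called in females (lower), beside 7.06%. Without adjustment 2 reached 0.05 with both sexes, 6 in females and 0 in males. In input 0 were called with both sexes or in males, beside 0.734% and 0% of 14164 genes, and 1 in females (higher), beside 3.48%; without adjustment 4 reached 0.05 with both sexes, 3 in females and 2 in males. The unadjusted shares over all genes were not counted, so the unadjusted counts of the list have no background to be set against. The median log2 difference of the list in footprints was -0.08 with both sexes, beside 0.00 over all genes.

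Eif5a, the factor itself, had 88.8, 90.2 and 91.6 footprint CPM in KO females against 99.4, 85.3 and 80.6 in WT females, and 104.9 and 105.6 in KO males against 138.7 and 73.0 in WT males. The groups overlapped (log2 difference with both sexes 0.00 ± 0.14, edgeR adjusted p = 0.995). Eprs, the synthetase that charges the proline and glutamate tRNAs, had 194, 200 and 188 in KO females against 196, 190 and 227 in WT females, and 106 and 120 in KO males against 127 and 117 in WT males (log2 difference -0.10 ± 0.08, edgeR adjusted p = 0.5003).

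The gene called in female footprints was Slc36a1, a lysosomal and plasma-membrane transporter of proline, glycine and alanine. It had 90.4, 98.6 and 92.4 CPM in KO females against 117.8, 121.9 and 138.5 in WT females (log2 difference -0.43 ± 0.11, edgeR adjusted p = 0.0415), and 84.5 and 110.1 in KO males against 79.9 and 86.4 in WT males. The count of 1 in female footprints was 0 without any 1 of the 6 female libraries. The gene called in female input was Slc6a20a, a proline transporter, at 28.9, 24.1 and 32.4 CPM in KO females against 20.4, 19.6 and 13.7 in WT females (log2 difference 0.67 ± 0.15, edgeR adjusted p = 0.0362). Choroid plexus markers in input summed to 817 to 3399 CPM in KO females and 57.3 to 1762 in WT females, and their part in the Slc6a20a difference was not tested. The count of 1 in female input was 0 without KO female replicate 1 or 3, WT female replicate 1 or 3 or either KO male, and 2 without WT female replicate 2.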

How the data were processed

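Footprint and input libraries of 20 samples were grouped by genotype and sex as the labels give them. Per the submitters' processing notes the authors used cutadapt 1.8.1, Trimmomatic 0.39, Bowtie 1.0.0 and 1.2.2 and SAMtools 0.1.19, with no role stated; the genome build and the codon counter are not named there. The authors deposited whole-number counts per gene and, for each footprint library, footprint counts per codon of an mRNA, listing codons with at least 1 footprint. Per the file headers the same tables give single-codon occupancy, a ratio of a codon's count to the mean count per codon of its mRNA, and the percentage of each coding sequence covered. The authors also deposited codon enrichment, a ratio for 61 codons at positions -90 to 90. A codon at table position 1 lies 1 codon upstream of the listed one; this was checked by recomputing the profile from the occupancy tables. PCR copies were not told apart by molecular identifiers in the labels' protocols, so the counts are reads.

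Codon identities and coordinates came from GENCODE mouse release 21 (GRCm38): 10963 of 11113 listed mRNAs matched at every listed codon. Some genes have more than 1 listed mRNA, whose sites can share reads. Enrichment was tested on the log2 scale with limma 3.58.1 over 61 codons, synonymous codons with an exact sign-flip test over 10 libraries, and genotype differences between them with an exact permutation of genotype within sex (smallest two-sided p 0.0167 with both sexes, 0.1 in females and 0.333 in males). Codon sites of mRNAs listed in all 10 libraries with a mean count of at least 10 were tested with edgeR 4.0.16 (quasi-likelihood, offset by the mean coverage of the mRNA), and genes with edgeR after TMM and filterByExpr. P-values were adjusted by Benjamini-Hochberg over all codons, sites or genes tested, with a threshold of 0.05. Values "with both sexes" are the mean of the female and male contrasts, and all 10 libraries shared 1 estimate of spread. For the residue before a proline, log2 occupancy had a pseudocount of 0.5 footprints. The scripts ran under R 4.3.3 and Python 3.11.15 and were tested on simulated data.

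The named sites are the 8 genes' sites of highest mean occupancy with at least 10 footprints in every library, and the 10 sites of smallest adjusted p between genotypes with both sexes. The members and lists were chosen with earlier results of these data known. Alternatives were the library median as scale, linear values, an eBayes trend, DESeq2 1.42.0, other thresholds and filters, a replicate block, and leaving out each library; crossing the male numbers, reference identities and counting unlisted codons as 0 were added after seeing the data.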

Additional observations from a re-analysis of the deposited data

How the results depend on the processing

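Depth limits single sites most, since 39.3% to 47.8% of listed sites per library rest on 1 footprint; intervals between animals rest on 3 or 2 per group, and the covered-share minimum of 50 percent left 22 to 132 mRNAs per library. Alternatives kept the direction and the side of the threshold in 762 comparisons with the reported values, while 52 changed sign, 34 lost and 12 gained a call, and 44 moved a value or count; where no cause is given, it was not tested.

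With the 5 WT or the 5 KO libraries alone, 0 synonymous pairs passed at position 1 and 0 at position 0, because 5 libraries cannot give an exact p below 0.0625; CCA over CCG at position 0 became 0.013 (log2) in KO alone. Dividing by the library median turned CCT at position 1 to -0.072 with both sexes and -0.019 in males, and CCA at position 0 in females to 0.012. The KO minus WT difference in the proline share of strong sites (log2) became -0.0033 at an occupancy of at least 20 (females -0.022) and -0.026 with at least 10 footprints (females -0.0095, males -0.043). That in mean log2 occupancy became -0.51 at a covered share of at least 70 percent (males -0.066). For listed sites with 2 prolines against 1, offsets -2 and -1 lost their call with reference identities (-0.00064), and offsets 0 and 1 gained one at a covered share of at least 50 percent (-0.41) and with unlisted codons as 0 (-0.63). The KO minus WT difference of offsets -1 and 0 became -0.13 at a covered share of at least 50 percent, and that of offsets 0 and 1 became 0.17 there and 0.038 with reference identities.

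EdgeR's 42 proline sites with both sexes became 25 with the replicate block and 0 by limma, and limma called 70 in females. Of the proline gene list, footprints in females gave 2 genes without the filter and 2 by DESeq2, 0 with the replicate block, and input in females 0 with the block. The block changed no call of the 4 codons, and neither did crossed male pairs. Male replicate numbers go with age in both genotypes, and no label names a shared litter or day; deviations of same-numbered libraries from their group means correlated at -0.579 to 0.0862 in females and, as 1 value per position, at -0.375 and -0.191 in males.

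Leaving out 1 library at a time moved the KO minus WT mean of the 4 codons at position 1 over -0.095 to -0.031 with both sexes, -0.147 to -0.079 in females and -0.084 to 0.043 in males. At position 0 it moved over -0.102 to -0.039 with both sexes, -0.126 to -0.062 in females and -0.118 to 0.0083 in males. Single codons crossed 0 in several of these fits: at position 1, CCT covered -0.024 to 0.029 with both sexes, and in males CCA covered -0.017 to 0.016, CCC -0.133 to 0.058, CCG -0.198 to 0.047 and CCT -0.022 to 0.085. At position 0, CCT covered -0.049 to 0.075 with both sexes, -0.023 to 0.079 in females and -0.132 to 0.117 in males, CCA covered -0.043 to 0.017 in females, and in males CCC covered -0.208 to 0.046 and CCG -0.15 to 0.0029. Limma's count of proline codons was 0 to 1 at position 1 and 0 to 2 at position 0, where it was also 0 to 2 in females. The KO minus WT difference in the share of strong sites covered -0.0093 to 0.012 with both sexes, -0.013 to 0.019 in females and -0.020 to 0.022 in males. The pair at offsets -2 and -1 covered -0.086 to -0.061, losing its call in 6 of 10 such fits, and its KO minus WT difference -0.070 to 0.028. EdgeR called 0 to 112 proline sites with both sexes and 7 to 259 in females. The calls over all codons and all sites in these limma and edgeR fits are not given here. The gene list gave 0 to 1 calls in female footprints, 0 to 1 in input with both sexes and 0 to 2 in female input.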
